A study of Mus musculus with 160 samples.

Results

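Cells sorted from the mouse aorta-gonad-mesonephros (AGM) region at E11.5 gave pools of sympathetic nervous system (SNS) cells with and without *Gata3*-GFP, and these pools are compared here. Of the 160 pools of the series, 40 carried an SNS label, 20 *Gata3*-GFP+ and 20 *Gata3*-GFP-, and 31 were used: 15 *Gata3*-GFP+ and 16 *Gata3*-GFP-. Pools were selected on their own counts: a pool was used when it held over 500000 counts on genes plus ERCC spike-in RNAs and its *Pdgfrb* count did not exceed its *Ngfr* count. All embryos were *Gata3*-GFP +/-, so both groups carried 1 reporter allele and differed, by their labels, in the GFP gate. GFP marks cells in which the *Gata3* locus is or was recently active, since the protein can outlast the transcript. SNS cells were sorted through *Ngfr*, the low-affinity neurotrophin receptor p75 of neural crest derivatives. Mesenchymal cells (MCs) of the same stage and genotype, sorted through *Pdgfrb*, serve below as the other E11.5 population (17 *Gata3*-GFP+ and 14 *Gata3*-GFP- pools used). A pool held 20 cells, and its RNA was amplified with Smart-seq2, a method for whole-transcript cDNA from few cells.

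Sympathetic neurons and chromaffin cells arise from neural crest cells that settle near the dorsal aorta. There, BMP signals switch on *Hand2*, *Gata2*, *Gata3* and other transcription factors that turn on the enzymes of noradrenaline synthesis, and the crest genes *Sox10* and *Foxd3* are turned off as cells become neurons. *Gata3* is needed for this step, and noradrenaline made in these cells is known to act on blood stem cell formation in the neighbouring aorta. Schwann cell precursors, the glial crest cells on nerves, share *Sox10* and *Erbb3* with crest cells.

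The check by *Ngfr* and *Pdgfrb* left out 6 pools labelled SNS, 3 of each GFP group, and depth left out 3 more (2 *Gata3*-GFP+ and 1 *Gata3*-GFP-). The 6 pools held 4 to 33 *Ngfr* counts and 365 to 1065 *Pdgfrb* counts. The used pool nearest to the limit, a *Gata3*-GFP- pool, held 2665 *Ngfr* and 283 *Pdgfrb* counts, a ratio of 0.106. On the other side of the limit the nearest pool, labelled *Gata3*-GFP+, held 21 and 365 counts, a ratio of 17.4. No pool therefore lay between these ratios. A further 6 pools labelled MC held more *Ngfr* than *Pdgfrb* counts, so that 12 pools at E11.5 went against their label, and these were used in neither group. They were not scattered: in the order of the count columns, each set of 6 came last among the pools of its label. The reason for this was not tested. On a scale shared by all E11.5 pools, *Gata3* was at 10.4 to 25.02 CPM in the 3 left-out pools labelled *Gata3*-GFP+ SNS and at 45.98 to 51.8 CPM in the 3 labelled *Gata3*-GFP- SNS, so that *Gata3* ran against the GFP label in them. Counts of calls are given with and without these 6 pools, and the named genes that lost their call with them are listed after the cell cycle genes.

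**Figure D1:**
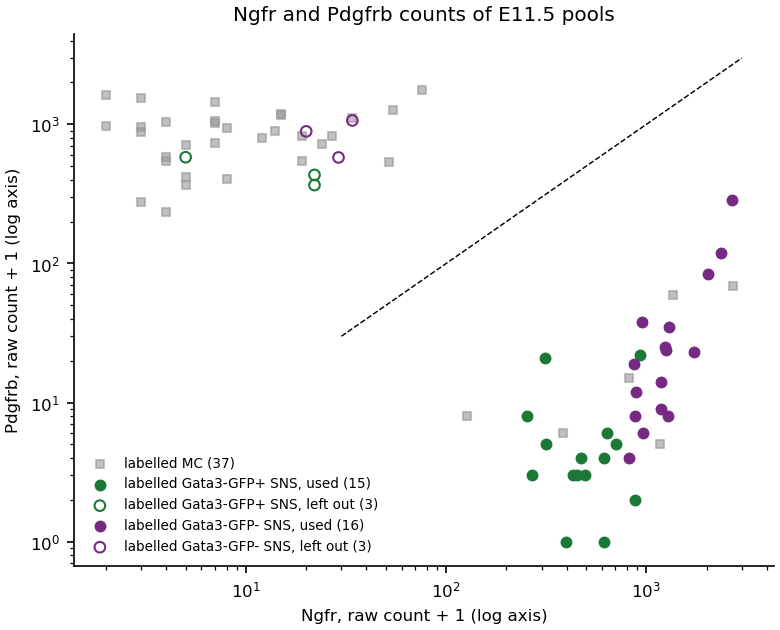
Raw *Pdgfrb* counts (plus 1, log axis) against raw *Ngfr* counts (plus 1, log axis) in E11.5 pools of over 500000 counts, with a dashed line where both are equal. Filled circles are the 15 *Gata3*-GFP+ and 16 *Gata3*-GFP- SNS pools used, all below the line, open circles are the 6 pools labelled SNS that were left out, all above it, and squares are pools labelled MC, of which 6 lie below it.

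The 31 pools held 3186865 to 9147907 counts on genes (medians of 4791347 in *Gata3*-GFP+ and 4486698.5 in *Gata3*-GFP-), of which 5.09% to 7.64% were mitochondrial. Levels are given as TMM-scaled CPM (read counts scaled to a common library size) as the lowest, median and highest pool of each group. *Ngfr*, which the selection used and which is not tested, ranged from 47.8 to 158.4 CPM in *Gata3*-GFP+ pools (median 101.99), and was above this range in each *Gata3*-GFP- pool (median 279 and at most 353 CPM). *Pdgfrb*, also used, ranged from 0 to 3.67 CPM (median 0.633) and from 0.747 to 29.9 CPM (median 4.46). *Sox10*, *Tlx2* and *Insm1* were read in every pool of both groups, above 5 CPM each. These genes of the sympathetic and crest lineages were picked from longer lists, and other members were not read in every pool. In *Gata3*-GFP- pools *Phox2a* was at 0 in 6 of 16 (median 0.559 CPM), and *Isl1* and *Th* in 1 each. The picked genes do not show that every cell of a pool was of these lineages. Markers of other cell types in the same pools are given below.

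*Gata3* checked the GFP gate. *Gata3* (chromosome 2, 9857078 to 9890034, minus strand, GRCm38) ranged from 115.01 to 318 CPM in *Gata3*-GFP+ pools (median 201) and from 11.9 to 98.3 CPM in *Gata3*-GFP- pools (median 41). Every *Gata3*-GFP+ pool lay above every *Gata3*-GFP- pool, with a log2 fold change of 2.10 ± 0.23 (SE) and an adjusted p of 3.22e-08 in edgeR. *Gata3* RNA was thus lower, not absent, in the pools sorted without GFP.

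Among 15658 genes tested, 773 (4.94%) were higher and 858 (5.48%) lower with GFP when a call needed a log2 fold change beyond 0.1 and, in edgeR, an adjusted p under 0.01. With a log2 fold change beyond 1 these were 325 and 474. With the 6 pools against their label kept, 325 were higher and 300 lower, of which 304 and 287 were also called without them. Separation of every pool was rare: in 31 genes (0.198%) every *Gata3*-GFP+ pool lay above every *Gata3*-GFP- pool, and in 44 (0.281%) the reverse was seen. These shares are the background for the gene groups that follow, and the median log2 fold change of all genes tested was -0.01.

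Sympathoadrenal transcription factors, the regulators of this lineage, were mostly higher in *Gata3*-GFP+ pools. Of 15 listed, 14 were tested and *Hmx1* was at 0 in every pool. In all 8 of 14 rose, among them *Phox2a*, *Hand2*, *Isl1*, *Insm1*, *Tlx2* and *Sox11*, *Tfap2a* fell, and the median log2 fold change was 1.34. With the 6 pools kept, 4 of the list were called higher and none lower.

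*Tlx2*, a homeobox gene of crest-derived neurons, ranged from 243 to 455 CPM in *Gata3*-GFP+ pools (median 337) and from 8.27 to 118.1 CPM in *Gata3*-GFP- pools (median 56.2), without overlap (log2 fold change 2.48 ± 0.23, SE, adjusted p = 1.00e-09). *Insm1*, a zinc-finger factor of neuroendocrine differentiation, ranged from 55 to 166 CPM (median 100.6) and from 6.88 to 54.6 CPM (median 22.5). The pools just failed to meet, and the log2 fold change was 1.93 ± 0.23 (SE, adjusted p = 1.92e-07). *Tlx2* and *Insm1* were thus higher in each *Gata3*-GFP+ pool than in any *Gata3*-GFP- pool.

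A second set of factors overlapped between the groups and varied widely within them. *Isl1*, a LIM homeobox gene of sympathetic neurons, ranged from 28.3 to 794 CPM in *Gata3*-GFP+ pools (median 107.1) and from 0 to 128.05 CPM in *Gata3*-GFP- pools (median 27.2). Its log2 fold change was 3.03 ± 0.61 (SE, adjusted p = 0.000454). *Phox2a*, a homeobox gene of noradrenergic neurons, and *Hand2*, a basic helix-loop-helix factor of this lineage, rose by 3.11 ± 0.77 and 2.16 ± 0.54 on the log2 scale (adjusted p = 0.00369 and 0.00393). *Sox11*, a factor of neuronal precursors, rose by 0.46 ± 0.11 (adjusted p = 0.00196). *Gata2*, the other GATA factor of these cells, ranged from 11 to 30.9 CPM in *Gata3*-GFP+ and from 0.221 to 27.9 CPM in *Gata3*-GFP- pools. Its log2 fold change of 1.11 ± 0.36 missed the threshold (adjusted p = 0.0285). *Tfap2a*, a crest factor, fell by 0.67 on the log2 scale (SE 0.18, adjusted p = 0.00700).

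**Figure D2:**
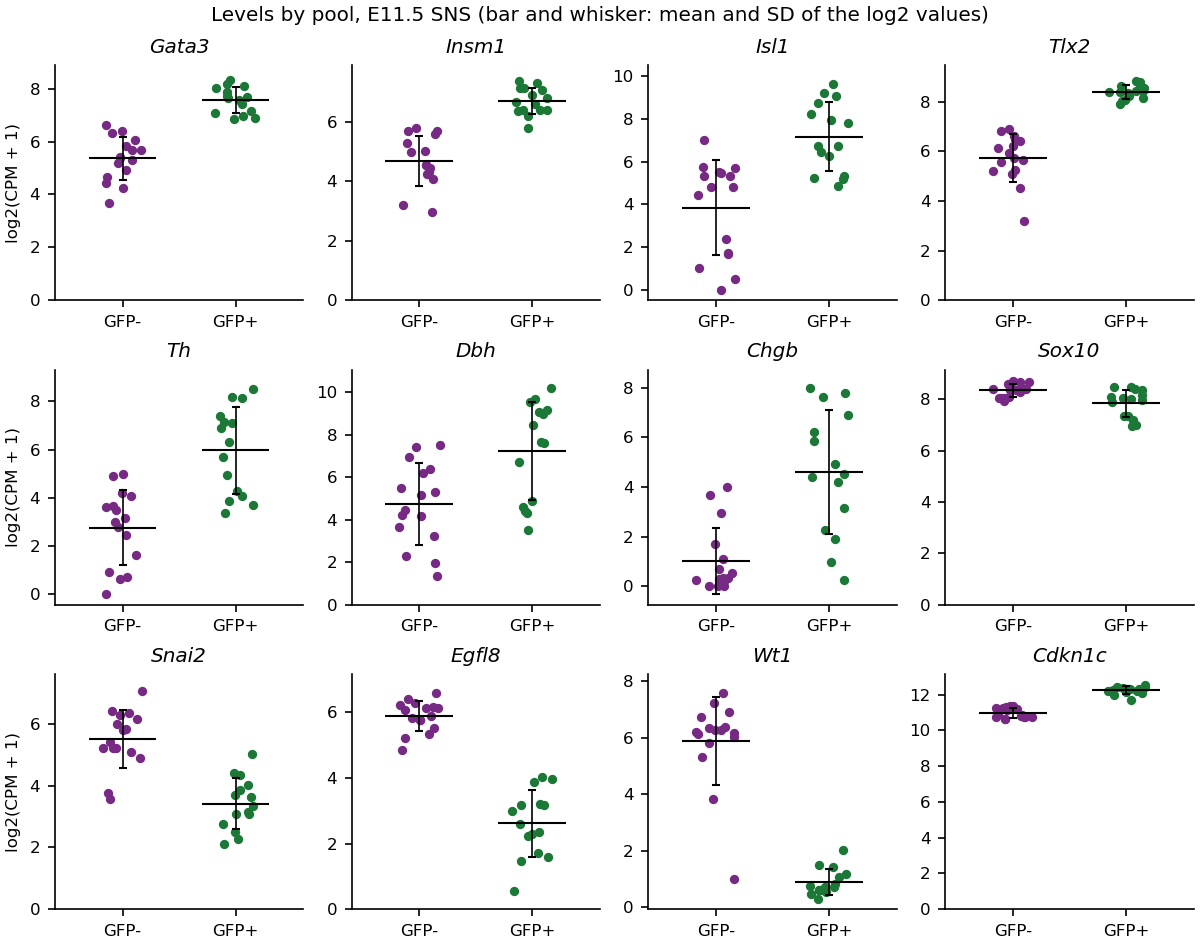
Levels of 12 genes as log2(CPM + 1) in each *Gata3*-GFP- (purple, 16) and *Gata3*-GFP+ (green, 15) SNS pool, with the mean and SD of the log2 values. *Gata3*, *Insm1*, *Tlx2* and *Cdkn1c* were higher and *Egfl8* lower in every *Gata3*-GFP+ pool, whereas *Isl1*, *Th*, *Dbh*, *Chgb*, *Sox10* and *Snai2* overlapped between the groups.

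Genes of catecholamine synthesis and storage rose as well, but unevenly from pool to pool. Of 16 listed, 15 were tested, 9 rose (*Th*, *Ddc*, *Dbh*, *Gch1*, *Pcbd1*, *Slc18a1*, *Slc18a2*, *Cyb561* and *Maoa*) and *Pnmt* fell, with a median log2 fold change of 0.99. With the 6 pools kept, 5 were called higher and none lower. *Th* (chromosome 7, 142892752 to 142931128), tyrosine hydroxylase, the rate-limiting enzyme, ranged from 9.47 to 366 CPM in *Gata3*-GFP+ pools (median 78.1) and from 0 to 30.6 CPM in *Gata3*-GFP- pools (median 7.38). The groups overlapped at the low end of the *Gata3*-GFP+ pools, and the log2 fold change was 3.59 ± 0.58 (SE, adjusted p = 2.32e-05, edgeR).

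*Dbh*, which makes noradrenaline from dopamine, ranged from 10.4 to 1158 CPM in *Gata3*-GFP+ pools (median 198) and from 1.56 to 181 CPM in *Gata3*-GFP- pools (median 27.4). Its log2 fold change of 2.79 ± 0.65 (adjusted p = 0.00225) was not called by the scanpy test used in the study (2.61). In all, 16 named genes lost their call by that test. *Gch1*, which makes the tetrahydrobiopterin cofactor of *Th*, ranged from 0.812 to 122.3 CPM (median 18.8) and from 0 to 8.4 CPM (median 0.348), with a log2 fold change of 3.98 ± 0.70 (adjusted p = 8.69e-05). All 3 enzymes therefore spanned a large range among *Gata3*-GFP+ pools, and the groups overlapped in each.

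The vesicle genes changed in the same direction. *Cyb561*, which passes electrons into chromaffin granules, rose by 3.76 ± 0.69 on the log2 scale (adjusted p = 0.000147) and *Slc18a1*, the chromaffin monoamine transporter, by 2.54 ± 0.55 (adjusted p = 0.000996). *Slc18a2*, its neuronal counterpart, rose by 1.6 ± 0.38 (adjusted p = 0.00281), and *Ddc*, the decarboxylase that follows *Th*, by 0.99 ± 0.23 (adjusted p = 0.00251). *Maoa*, which degrades catecholamines, rose by 0.64 ± 0.17 (adjusted p = 0.00520). The noradrenaline transporter *Slc6a2* was too low to be tested. *Pnmt*, which makes adrenaline, was near its limit of detection, with 6 counts over all *Gata3*-GFP+ pools and at most 3.76 CPM in a *Gata3*-GFP- pool (log2 fold change -3.51 ± 0.90, adjusted p = 0.00506).

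Secretory granule and synaptic release genes followed, with 10 of the 19 tested of 23 listed rising, none falling and a median log2 fold change of 1.78 (7 higher and 0 lower with the 6 pools kept). *Chgb*, a granin that packs granules, ranged from 0.171 to 249 CPM in *Gata3*-GFP+ pools (median 22) and from 0 to 15 CPM in *Gata3*-GFP- pools (median 0.254). It gave the largest change of the list, 4.92 ± 0.83 on the log2 scale (SE, adjusted p = 4.40e-05). *Chga*, its relative, rose by 2.91 ± 0.68 (adjusted p = 0.00228) and *Snap25*, a fusion protein of synaptic vesicles, by 2.94 ± 0.56 (adjusted p = 0.000235). *Cartpt*, a neuropeptide precursor, rose by 4.32 ± 0.86 (adjusted p = 0.000406), but a single *Gata3*-GFP+ pool (101.8 CPM) supplied 596 of that group's 861 reads. The *Gata3*-GFP+ median of *Cartpt* was 2.22 CPM, and 5 of these pools exceeded the *Gata3*-GFP- maximum of 3.41 CPM. The neuropeptides *Npy*, *Gal* and *Penk* did not pass the test (adjusted p = 0.698, 0.280 and 0.588), and *Gal* reached 81.3 CPM in 1 *Gata3*-GFP+ and 40.4 CPM in 1 *Gata3*-GFP- pool.

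Promoter sequences are shown for members of these lists because *Th* and the granins are known for a cyclic AMP response element (CRE) near their start, and *Gata3* itself encodes a GATA-binding factor. The sequences are the 250 bases before the transcription start in RefSeq (GRCm38.p6), 5′ to 3′ on the gene's strand. Capitals mark the CRE letters TGACGTCA or TGACGTAA in *Th*, *Chgb*, *Chga* and *Cartpt*, and the GATA letters (AGATAA in one form, with AGATAG as the next, TGATAA as another and TGATAG as the last, on either strand) in *Gch1*, *Slc18a2* and *Isl1*. They lie at chr7:142899996-142900245 (minus strand, *Th*), chr2:132781392-132781641 (plus, *Chgb*), chr12:102554691-102554940 (plus, *Chga*), chr13:99900684-99900933 (minus, *Cartpt*), chr14:47189414-47189663 (minus, *Gch1*), chr19:59260628-59260877 (plus, *Slc18a2*) and chr13:116309689-116309938 (minus, *Isl1*).
Th: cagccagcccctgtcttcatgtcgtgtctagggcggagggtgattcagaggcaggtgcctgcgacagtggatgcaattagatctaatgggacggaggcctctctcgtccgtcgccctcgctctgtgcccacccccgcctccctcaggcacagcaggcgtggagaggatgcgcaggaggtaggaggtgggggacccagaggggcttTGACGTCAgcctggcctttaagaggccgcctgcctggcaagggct
Chgb: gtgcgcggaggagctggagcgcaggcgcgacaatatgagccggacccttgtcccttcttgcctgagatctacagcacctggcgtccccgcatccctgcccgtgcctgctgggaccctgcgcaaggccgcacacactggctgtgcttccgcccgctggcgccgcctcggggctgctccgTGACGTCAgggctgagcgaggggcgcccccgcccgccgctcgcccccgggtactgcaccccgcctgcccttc
Chga: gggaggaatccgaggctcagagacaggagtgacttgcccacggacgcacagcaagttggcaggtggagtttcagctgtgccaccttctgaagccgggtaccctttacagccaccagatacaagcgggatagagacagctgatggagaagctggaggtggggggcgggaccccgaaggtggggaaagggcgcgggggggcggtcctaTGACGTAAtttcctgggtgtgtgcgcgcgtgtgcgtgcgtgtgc
Cartpt: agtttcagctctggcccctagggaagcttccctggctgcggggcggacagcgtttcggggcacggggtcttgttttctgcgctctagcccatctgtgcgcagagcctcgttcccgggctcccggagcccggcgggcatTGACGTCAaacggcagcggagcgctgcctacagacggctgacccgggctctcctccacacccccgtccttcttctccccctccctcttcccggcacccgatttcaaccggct
Gch1: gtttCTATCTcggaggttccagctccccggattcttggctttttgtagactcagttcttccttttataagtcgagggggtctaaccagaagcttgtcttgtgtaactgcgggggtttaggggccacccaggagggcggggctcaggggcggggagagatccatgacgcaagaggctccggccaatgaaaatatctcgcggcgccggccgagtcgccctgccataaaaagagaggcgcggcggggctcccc
Slc18a2: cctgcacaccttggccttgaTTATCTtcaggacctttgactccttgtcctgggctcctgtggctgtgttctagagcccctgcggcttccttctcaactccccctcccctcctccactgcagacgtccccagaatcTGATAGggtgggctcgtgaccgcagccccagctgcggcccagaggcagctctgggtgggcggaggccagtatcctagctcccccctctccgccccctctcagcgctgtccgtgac
Isl1: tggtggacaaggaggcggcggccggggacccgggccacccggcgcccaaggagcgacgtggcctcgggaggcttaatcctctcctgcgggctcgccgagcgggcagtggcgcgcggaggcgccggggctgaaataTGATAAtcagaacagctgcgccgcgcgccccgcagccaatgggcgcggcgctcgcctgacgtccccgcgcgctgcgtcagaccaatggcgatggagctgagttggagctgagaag

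The CRE letters ended 38 bases before the start in *Th*, 37 in *Chga* and 65 in *Chgb*, and lay farther upstream in *Cartpt*. Of the 27 members of the transcription factor, catecholamine and granule lists that rose, 19 had a window in the RefSeq table. The CRE letters were found in 4 of these 19, beside 616 of the 27025 genes with a window (2.28%), both strands searched. Since the letters were chosen because *Th* and the granins are known for them, the 4 of 19 cannot be read against that share. The GATA letters were found in 8 of the 19, beside 8039 of all genes (29.7%), so that they were frequent in general. A match of letters describes the sequence and shows no binding.

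Genes of neuronal shape and RNA binding had the largest share of raised members among these lists. All 23 listed were tested, 18 rose and none fell, with a median log2 fold change of 1.82, and 10 were higher with the 6 pools kept. *Elavl4*, a neuronal RNA-binding protein, ranged from 264 to 634 CPM in *Gata3*-GFP+ and from 48.1 to 198 CPM in *Gata3*-GFP- pools, without overlap (log2 fold change 1.73 ± 0.17, SE, adjusted p = 4.83e-09). *Prph*, the peripheral neuron intermediate filament, rose by 3.49 ± 0.77 on the log2 scale (adjusted p = 0.00115). *Stmn2* and *Stmn3*, which bind tubulin, rose by 3.30 ± 0.63 and 3.17 ± 0.61 (adjusted p = 0.000224 and 0.000241). *Map2*, a dendritic microtubule protein, rose by 1.27 ± 0.18 (adjusted p = 2.71e-06). Markers of sensory neurons (5 of 11 tested) and of spinal motor neurons (1 of 6) held no called gene. Their log2 fold changes were positive all the same, with a median of 1.82 over the 5 sensory genes and 2.47 for the motor neuron gene. The summed level of the sensory list was 5.38 to 89.7 CPM in *Gata3*-GFP+ and 0.212 to 23.8 CPM in *Gata3*-GFP- pools, and its part in the neuronal genes was not tested.

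Nicotinic receptors, through which sympathetic neurons receive their input, were measured beside voltage-gated channels. Of 10 cholinergic genes 7 were tested and 3 rose, *Chrnb4* by 3.07 ± 0.77, *Chrnb2* by 2.60 ± 0.69 and *Chrna4* by 1.10 ± 0.22 on the log2 scale (adjusted p = 0.00433, 0.00669 and 0.000457). None of the 3 was called with the 6 pools kept. Of 24 channel genes 16 were tested, with *Scn3b*, a sodium channel subunit, and *Cacnb3*, a calcium channel subunit, higher and the potassium channel *Kcnh2* lower (1 higher and 1 lower with the 6 pools kept).

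Most crest and Schwann cell precursor genes passed no test, and more of them fell than rose. All 28 listed were tested, 8 fell (among them *Foxd3*, *Snai2*, *Zeb2*, *Cdh19*, *Itga4*, *Moxd1* and *Egfl8*), *Sox2* rose, and the median log2 fold change was -0.42. With the 6 pools kept, 3 were lower. On the scale of ERCC counts (below), 4 of the list were higher and 3 lower, with a median of 0.08.

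*Egfl8*, a secreted EGF-domain protein, ranged from 0.458 to 15.4 CPM in *Gata3*-GFP+ pools (median 5.10) and from 28.1 to 94.9 CPM in *Gata3*-GFP- pools (median 62.2), without overlap (log2 fold change -3.22 ± 0.30, SE, adjusted p = 1.58e-09). *Egfl8* shares 40.7% of its exon bases with *Agpat1* on the other strand and a predicted gene, so its reads are not certain. *Foxd3*, which keeps crest cells multipotent, fell by 1.4 on the log2 scale (SE 0.30, adjusted p = 0.000857). *Snai2* and *Zeb2*, zinc-finger factors of crest migration, fell by 2.22 (SE 0.32, adjusted p = 3.81e-06) and by 0.83 (SE 0.12, adjusted p = 7.51e-06). Both overlapped between the groups.

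The core glial genes behaved otherwise. *Sox10* (chromosome 15, 79154908 to 79165240), the factor that defines crest and glial precursors, ranged from 122.7 to 353 CPM in *Gata3*-GFP+ pools (median 256) and from 244 to 419 CPM in *Gata3*-GFP- pools (median 333). Its log2 fold change of -0.44 ± 0.14 missed the threshold (adjusted p = 0.0214). *Erbb3* and *Ednrb*, receptors of crest and glial precursors, had log2 fold changes of -0.54 ± 0.15 and -0.77 ± 0.22 (adjusted p = 0.0108 and 0.0109). *Sox10* was thus read at a high level in every *Gata3*-GFP+ pool, beside *Tlx2*. *Sox2*, a factor of precursors, rose by 0.60 ± 0.15 (adjusted p = 0.00441). In a pool of 20 cells, fewer cells of a type and less RNA per cell cannot be told apart, here and in all that follows.

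**Figure D3:**
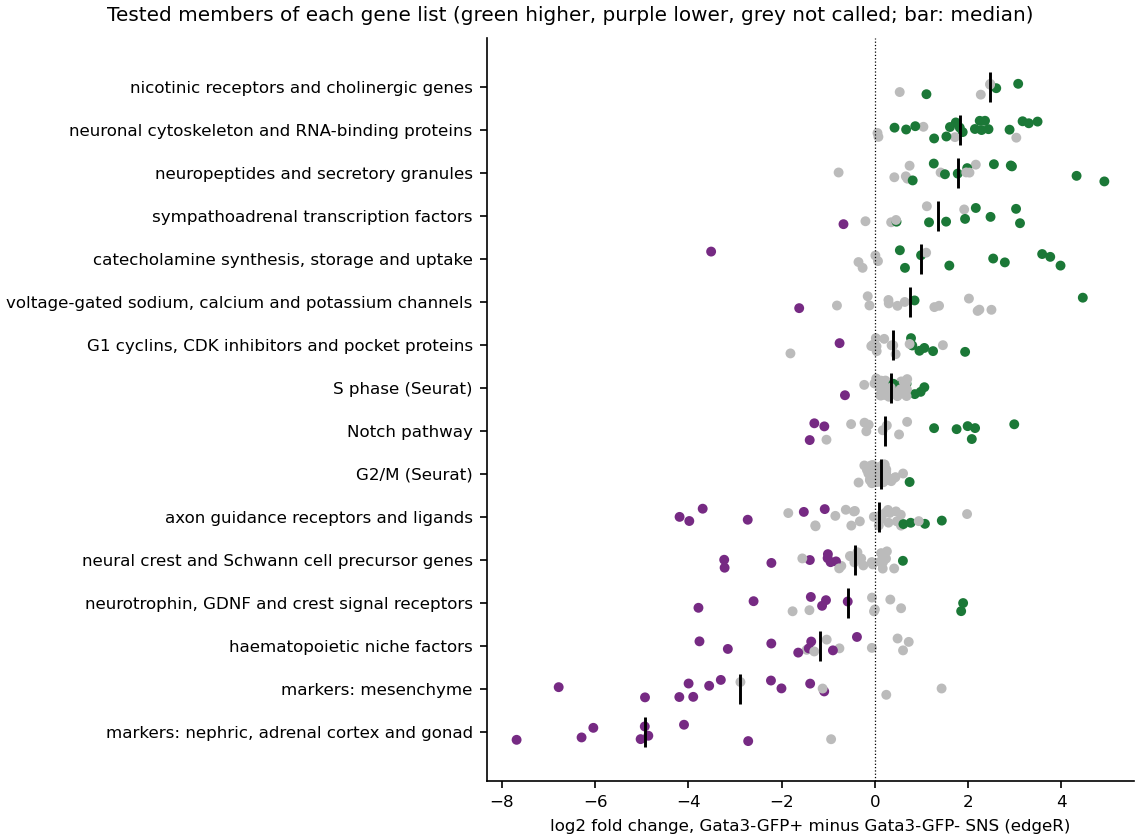
Log2 fold change of each tested member of 16 gene lists between *Gata3*-GFP+ and *Gata3*-GFP- SNS pools (edgeR), in green when called higher, purple when called lower and grey when not called, with the list's median as a bar. The neuronal, granule, transcription factor and catecholamine lists lie to the right (medians 1.82, 1.78, 1.34 and 0.99) and the mesenchymal and nephric or gonadal markers to the left (medians -2.88 and -4.93).

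Receptors for neurotrophic and crest signals changed in both directions. Of 19 listed, 15 were tested, 2 rose and 6 fell, with a median log2 fold change of -0.58 (0 higher and 2 lower with the 6 pools kept). *Ret*, the signalling receptor for GDNF family ligands, ranged from 50.7 to 169 CPM in *Gata3*-GFP+ pools (median 96.2) and from 3.95 to 105.9 CPM in *Gata3*-GFP- pools (median 16.5), with a log2 fold change of 1.89 ± 0.36 (adjusted p = 0.000202). *Kit*, the stem cell factor receptor, ranged from 34.8 to 92.1 CPM (median 53.7) and from 0.221 to 32.4 CPM (median 14.3), without overlap (log2 fold change 1.85 ± 0.28, adjusted p = 1.10e-05). *Ret* and *Kit* kept the direction but not the call with the 6 pools kept (1.87 and 1.02).

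*Gfra3*, the coreceptor of *Ret* for artemin, went the other way, from 4.13 to 40.8 CPM in *Gata3*-GFP+ pools (median 21.4) and from 75.8 to 173 CPM in *Gata3*-GFP- pools (median 123.1). The groups did not overlap (log2 fold change -2.60 ± 0.20, SE, adjusted p = 2.27e-11). *Gfra1* and *Gfra2*, the coreceptors for GDNF and neurturin, fell by 0.58 (SE 0.15, adjusted p = 0.00623) and by 1.13 (SE 0.31, adjusted p = 0.00787). *Ret* RNA was therefore higher and each of the coreceptors *Gfra1*, *Gfra2* and *Gfra3* lower in *Gata3*-GFP+ pools. *Erbb2*, the partner of *Erbb3* for neuregulin, fell by 1.37 (SE 0.24, adjusted p = 9.81e-05), and *Ednra*, an endothelin receptor, by 1.05 (SE 0.17, adjusted p = 3.24e-05).

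Notch ligands and receptors split by member. Of 20 listed, 18 were tested, 6 rose and 3 fell (2 and 2 with the 6 pools kept), and the median was 0.21. *Dll3*, a ligand that acts inside its own cell, ranged from 79.2 to 366 CPM in *Gata3*-GFP+ pools (median 154.6) and from 3.13 to 144.99 CPM in *Gata3*-GFP- pools (median 30.8), with a log2 fold change of 2.08 ± 0.38 (adjusted p = 0.000122). *Dll1*, the ligand of differentiating neurons, rose by 2.15 ± 0.47 (adjusted p = 0.00122), *Mfng*, which adds sugars to Notch, by 1.99 ± 0.37 (adjusted p = 0.000158), and *Hes6*, a proneural helper, by 1.27 ± 0.19 (adjusted p = 6.32e-06). The ligand *Jag1* ranged from 10.3 to 52.9 CPM and from 32.6 to 116.7 CPM, and fell by 1.4 on the log2 scale (SE 0.20, adjusted p = 4.56e-06). The receptors *Notch2* and *Notch3* fell by 1.30 (SE 0.20, adjusted p = 8.52e-06) and by 1.08 (SE 0.18, adjusted p = 4.12e-05). The other Jagged ligand, *Jag2*, was low, at up to 7.47 CPM in *Gata3*-GFP+ and 1.77 CPM in *Gata3*-GFP- pools, and rose by 2.99 ± 0.80 (adjusted p = 0.00705). *Dll1*, *Dll3* and *Jag2* were thus higher and *Jag1*, *Notch2* and *Notch3* lower, while *Notch1* gave -0.22 ± 0.15 (adjusted p = 0.365).

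Axon guidance genes (33 of 35 tested) had 4 higher and 6 lower members and a median of 0.08, with 0 higher and 3 lower when the 6 pools were kept. *Unc5b*, a netrin receptor, rose by 1.43 ± 0.32, *Slit3*, a repellent, by 1.07 ± 0.16 and *Robo1*, a Slit receptor, by 0.77 ± 0.21 on the log2 scale (adjusted p = 0.00142, 5.27e-06 and 0.00741). *Sema3d*, a semaphorin of migrating crest, ranged from 0 to 11.4 CPM in *Gata3*-GFP+ pools (median 2.71) and from 22.5 to 56.5 CPM in *Gata3*-GFP- pools (median 39.6). No pool of one group reached the other, and the log2 fold change was -3.69 ± 0.39 (SE, adjusted p = 1.17e-08). *Epha4* and *Efnb1*, of the Eph and ephrin system, fell by 3.98 (SE 0.60, adjusted p = 7.33e-06) and by 1.52 (SE 0.21, adjusted p = 2.51e-06).

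Over all genes, the 8 largest rises with at least 10 counts in 75% of *Gata3*-GFP+ pools were *Ldoc1* (4.94 on the log2 scale), *Agtr2* (4.93), *Chgb* (4.92), *Dgkk* (4.65), *Tnfrsf13c* (4.54), *Htr3a* (4.29), *Gch1* (3.98) and *Nptx1* (3.97). *Agtr2*, the angiotensin II type 2 receptor, ranged from 0.689 to 954 CPM in *Gata3*-GFP+ pools (median 201) and from 0.297 to 45.3 CPM in *Gata3*-GFP- pools (median 4.17), with an adjusted p of 1.92e-05 in edgeR. *Htr3a*, a serotonin-gated ion channel, ranged from 22.4 to 88.1 CPM (median 46) and from 0 to 15.7 CPM (median 0.230). Of these 8 genes *Htr3a* was the only one without overlap between the groups (adjusted p = 9.97e-07).

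The 8 largest falls were *Ifitm1* (-7.92), *Gata4* (-7.68), *C1qtnf7* (-7.57), *Rspo1*, *Amhr2* (-7.30), *Kctd14* (-7.00), *Tcf21* (-6.78) and *Rpp25* (-6.32). *Gata4*, *Amhr2* and *Tcf21* are known from the gonad, kidney and lateral mesoderm, and each was at or near 0 in *Gata3*-GFP+ pools. *Rspo1*, an activator of Wnt signalling, had 2 counts over all *Gata3*-GFP+ and 770 over all *Gata3*-GFP- pools. As shares of each group's total counts these gave a ratio of 364, *Gata3*-GFP- over *Gata3*-GFP+. Its exact 95% interval, 100.5 to 3014, covers counting error only. These falls are read beside the marker lists that follow.

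Markers of other cell types differed between the groups. Of 12 markers of nephric, adrenal cortical and gonadal cells, 9 were tested and 8 fell (*Pax2*, *Pax8*, *Wt1*, *Emx2*, *Nr5a1*, *Gata4*, *Nr0b1* and *Foxd1*), with a median log2 fold change of -4.93, and 6 fell with the 6 pools kept. Their summed level was 0.981 to 19.6 CPM in *Gata3*-GFP+ and 16.9 to 431 CPM in *Gata3*-GFP- pools, and *Lhx1* was at 0 in every *Gata3*-GFP+ pool. *Wt1*, a zinc-finger factor of kidney and gonad, ranged from 0.228 to 3.12 CPM (median 0.650) and from 0.981 to 189 CPM (median 74.6), with a log2 fold change of -6.29 ± 0.44 (adjusted p = 3.07e-12). *Wt1* was thus at or below a few CPM in every *Gata3*-GFP+ pool and far above that in most *Gata3*-GFP- pools.

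Mesenchymal markers behaved alike in direction. Of 17 listed, 15 were tested and 11 fell, with a median log2 fold change of -2.88, and none was called with the 6 pools kept. Their summed level was 130 to 374 CPM in *Gata3*-GFP+ and 508 to 981 CPM in *Gata3*-GFP- pools, beside 3168 to 6117 CPM in MC pools. *Pdgfra*, a growth factor receptor of mesenchyme, ranged from 0.171 to 3.54 CPM (median 0.636) and from 0 to 75.3 CPM (median 24.7), with a log2 fold change of -4.93 ± 0.54 (adjusted p = 3.24e-08). Since the selection of pools used *Pdgfrb*, a gene of the same cells, the levels of this list are not independent of it.

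The other marker lists had smaller sums. Endothelial markers summed to 12.9 to 78.5 CPM in *Gata3*-GFP+ and 2.74 to 31.8 CPM in *Gata3*-GFP- pools (4 of 10 tested, 0 called), and red blood cell markers to at most 4.46 and 4.87 CPM (1 of 8 tested, 0 called). Blood and macrophage markers summed to 18.04 to 65.7 CPM and 3.43 to 42.9 CPM, and of the 2 of 9 tested *Coro1a*, an actin-binding protein, was higher (3.39 ± 0.60, adjusted p = 8.27e-05). Melanoblast markers summed to 0.416 to 5.83 CPM in *Gata3*-GFP+ and 3.74 to 66.4 CPM in *Gata3*-GFP- pools (3 of 6 tested). Of these, *Dct*, a melanin enzyme, ranged from 0 to 3.51 CPM and from 3.74 to 58.9 CPM and fell by 5.78 on the log2 scale (SE 0.55, adjusted p = 2.50e-09). *Tyrp1* was at 0 in every pool of both groups. Epithelial markers summed to at most 18.4 and 25.04 CPM and gave no call (3 of 6 tested). Muscle markers summed to 3.59 to 18.7 CPM and 4.86 to 83.8 CPM, and the 1 tested of 8, *Des*, a muscle intermediate filament, fell by 1.92 (SE 0.32, adjusted p = 4.14e-05). The part of these other cells in the sympathetic genes was not tested.

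Factors made by the blood stem cell niche were lower or not called in *Gata3*-GFP+ pools. Of 26 listed, 25 were in the table, 16 were tested, 8 fell (*Kitl*, *Cxcl12*, *Bmp2*, *Bmp7*, *Vegfa*, *Igf2*, *Ptn* and *Mdk*) and none rose, with a median log2 fold change of -1.17, while 1 was lower with the 6 pools kept. On the scale of ERCC counts *Mdk* gave 0.069 and was not called. *Cxcl12*, the chemokine that holds blood stem cells in place, ranged from 4.59 to 20.4 CPM (median 8.38) and from 19 to 92.7 CPM (median 37.3), with a log2 fold change of -2.22 ± 0.23 (adjusted p = 1.21e-08). *Kitl*, stem cell factor, ranged from 5.38 to 50.9 CPM (median 15.9) and from 22.3 to 68.5 CPM (median 48.9), and fell by 1.37 on the log2 scale (SE 0.23, adjusted p = 4.38e-05). *Ptn*, a heparin-binding growth factor, fell by 3.15 (SE 0.32, adjusted p = 5.33e-09). *Igf2* fell by 1.64 (SE 0.19, adjusted p = 8.98e-08), although *Igf2os* and a predicted gene cover 64.5% of its exon bases. The mesenchymal and nephric or gonadal markers were lower in the same pools, and their part in the niche factors was not tested.

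Cell cycle genes were compared through 3 lists. Of 21 G1 regulators, 19 were tested, 6 rose and 1 fell, with a median log2 fold change of 0.39 (3 higher and 0 lower with the 6 pools kept). *Cdkn1c* (chromosome 7, 143458339 to 143461050), the cyclin-dependent kinase inhibitor p57, ranged from 3314 to 5978 CPM in *Gata3*-GFP+ pools (median 5048) and from 1583 to 2651 CPM in *Gata3*-GFP- pools (median 1910). The groups did not overlap, and the log2 fold change was 1.25 ± 0.08 (SE, adjusted p = 1.19e-12, edgeR). A predicted gene on the other strand shares 30.7% of the exon bases of *Cdkn1c*.

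The cyclins *Ccnd1*, *Ccne1* and *Ccne2*, which drive entry into the cycle, rose beside this inhibitor, by 0.80 ± 0.12, 0.77 ± 0.16 and 1.06 ± 0.26 on the log2 scale (adjusted p = 7.60e-06, 0.000641 and 0.00296). *Cdk6*, a G1 kinase, fell by 0.76 (SE 0.15, adjusted p = 0.000373). Of 43 S phase genes, all tested, 9 rose and 1 fell (8 and 0 with the 6 pools kept), and the median was 0.35. *Rrm2*, the limiting subunit of ribonucleotide reductase, ranged from 301 to 823 CPM (median 460) and from 106.1 to 418 CPM (median 240), with a log2 fold change of 0.98 ± 0.16 (adjusted p = 4.14e-05). *Pcna*, the DNA polymerase clamp, rose by 0.60 ± 0.12 (adjusted p = 0.000335) and *Cdc45*, a helicase component, by 0.86 ± 0.19 (adjusted p = 0.00107). Of 54 G2/M genes, all tested, 2 rose (*Gtse1* and *Jpt1*) and none fell, with a median of 0.13 (1 higher and 0 lower with the 6 pools kept).

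Of the named genes that were called, 55 kept the call with the 6 pools against their label and 50 lost it. Among genes of the sympathetic, neuronal and crest lists, the call was lost by *Phox2a*, *Hand2*, *Tfap2a*, *Ddc*, *Pcbd1*, *Maoa*, *Slc18a1*, *Pnmt*, *Elavl4*, *Cacnb3*, *Foxd3*, *Snai2*, *Cdh19*, *Itga4*, *Moxd1* and *Sox2*, beside the 3 nicotinic receptors. *Snai2* went from -2.22 to -0.92 on the log2 scale. Among receptors and guidance genes it was lost by *Ret*, *Kit*, *Gfra1*, *Gfra2*, *Erbb2*, *Ednra*, *Dll1*, *Jag2*, *Mfng*, *Notch3*, *Unc5b*, *Robo1*, *Slit3*, *Epha4* and *Efnb1*. *Unc5b* then gave 0.18 and *Epha4* -0.01. Among niche factors and markers it was lost by *Bmp2*, *Bmp7*, *Cxcl12*, *Igf2*, *Mdk*, *Ptn*, *Vegfa*, *Pdgfra*, *Tcf21*, *Wt1*, *Des* and *Foxd1*, with *Cxcl12* at -0.69, *Ptn* at -0.57, *Igf2* at -0.37, *Pdgfra* at -1.19 and *Wt1* at -2.18 (adjusted p = 0.0507, edgeR). *Foxd1* changed sign, from -2.72 to 0.81. Of the cell cycle genes *Ccnd1*, *Ccne1*, *Cdk6* and *Jpt1* lost the call, and *Cdkn1c* kept it (1.17, adjusted p = 0.000182).

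The same GFP contrast in MC pools ran differently. Among 17309 genes tested there, 846 (4.89%) were higher and 1043 (6.03%) lower in *Gata3*-GFP+ MCs. Among S phase genes 16 of 43 fell and 0 rose (median -0.56), while 28 of 54 G2/M genes fell and 0 rose (median -0.87). The test of the difference between the 2 contrasts gave 819 genes (4.73%) with a higher and 976 (5.64%) with a lower effect of GFP in SNS than in MC pools. By that test 22 of 43 S phase and 18 of 54 G2/M genes had the higher effect in SNS pools, and none the lower (21 and 15 with the pools against their label kept). For *Rrm2* the log2 fold change was -0.82 in MCs and the difference 1.80 (adjusted p = 9.58e-08).

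**Figure D4:**
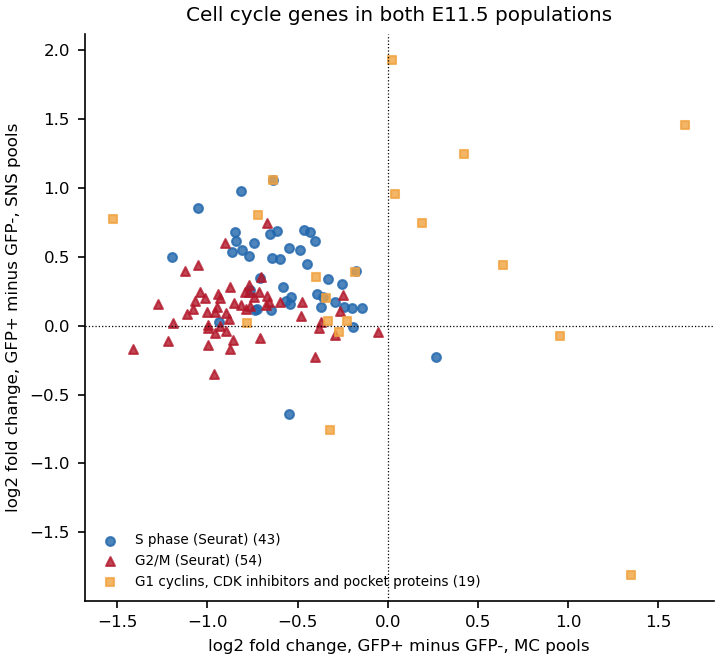
Log2 fold change between *Gata3*-GFP+ and *Gata3*-GFP- pools in SNS (vertical axis) against that in MCs (horizontal axis) for tested S phase (43), G2/M (54) and G1 (19) genes, in edgeR. S phase genes lie mostly above 0 in SNS pools and below 0 in MC pools, with medians of 0.35 and -0.56.

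*Cdkn1c* was higher with GFP in both populations (log2 fold change 0.42 in MCs), with a larger effect in SNS pools (difference 0.83, adjusted p = 9.52e-07). *Gata3* itself rose by 1.90 in MCs, and no difference between the contrasts was detected (0.20, adjusted p = 0.75). *Tlx2* had a larger effect in SNS than in MC pools, by 3.90 on the log2 scale (adjusted p = 1.88e-08). In MC pools this gene was low, with medians of 1.53 CPM in *Gata3*-GFP- and 0.549 CPM in *Gata3*-GFP+ pools. *Jag1*, *Notch2* and *Notch3*, which fell in SNS pools, rose in MCs by 1.53, 0.90 and 0.69 (differences of -2.93, -2.20 and -1.78, adjusted p = 3.16e-13, 5.73e-12 and 1.78e-09). Over all genes, 98 were called higher and 86 lower in both populations, and 180 went in opposite directions, 76 of them higher in SNS and lower in MC pools.

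Total RNA differed in amount. The log2 ratio of gene counts to ERCC counts, which rises with the RNA in a pool, was 7.56 ± 0.345 (SD, n = 15) in *Gata3*-GFP+ and 7.14 ± 0.276 (SD, n = 16) in *Gata3*-GFP- pools. They differed by 0.421 (a ratio of 1.34), with a two-sided permutation p of 0.00056, and it was 0.292 (p = 0.0380, permutation) with the 6 pools kept. Genes with at least 10 counts numbered 13272.1 ± 557 (SD, n = 15) and 13258 ± 617 (SD, n = 16), a difference of 14.1 (permutation p = 0.943). With ERCC counts as the scale, the median log2 fold change of all genes was 0.44, and 4097 genes were higher and 363 lower. Log2 fold changes elsewhere in the text are therefore relative to the other genes of a pool.

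*Gata3*-GFP+ pools also differed among themselves. The pool with the highest *Gata3* (318 CPM) held 276 CPM of *Th*, 1158 CPM of *Dbh* and 144.2 CPM of *Sox10*. The pool with the lowest *Gata3* (115.01 CPM) held 18.5 CPM of *Th*, 101.8 CPM of *Dbh* and 335 CPM of *Sox10*. The 2 pools were thus far apart in enzymes and in *Sox10*.

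Relations were computed on log2(CPM + 1) for 2 pairs in each group, 4 in all, with pairs chosen after values were seen and permutation tests of 100000 resamples. Across the 15 *Gata3*-GFP+ pools, *Gata3* and *Th* gave Pearson's r = 0.81 (permutation p = 0.00042, adjusted 0.00168) and Spearman's rho = 0.78 (p = 0.00103, adjusted 0.00412). Without the 2 pools farthest from the median of *Gata3*, r was 0.75. Across the 16 *Gata3*-GFP- pools r was 0.59 (permutation p = 0.0167, adjusted 0.0274) and rho 0.61 (p = 0.0144, adjusted 0.0193), with r = 0.50 without the 2 farthest pools. Since the pair was chosen for its values, these p-values describe the relation and are no independent test of it.

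Depth moved with *Th* in *Gata3*-GFP+ pools, where gene counts and *Th* gave r = 0.59 (permutation p = 0.0205, adjusted 0.0274, rho = 0.64, p = 0.0120, adjusted 0.0193, r = 0.46 without 2 pools), and its part in the relation with *Gata3* was not tested. In *Gata3*-GFP- pools gene counts and *Th* gave r = -0.23 (permutation p = 0.403, rho = -0.29, p = 0.284, r = -0.40 without 2 pools). No r was computed for *Sox10*, since the *Gata3*-GFP+ pools fell into separate ranges of it, 5 pools from 122.7 to 164 CPM and 10 pools from 238 to 353 CPM.

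**Figure D5:**
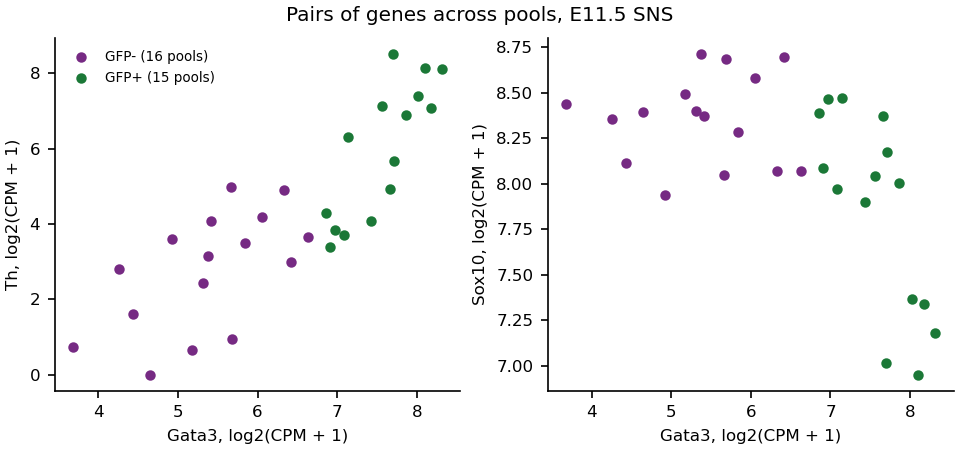
*Th* against *Gata3* and *Sox10* against *Gata3* as log2(CPM + 1), 1 point for each *Gata3*-GFP- (purple, 16) and *Gata3*-GFP+ (green, 15) SNS pool. *Th* rises with *Gata3* within each group (r = 0.81 and 0.59), and 5 *Gata3*-GFP+ pools lie below all others in *Sox10*.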

How the data were processed

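RNA of sorted pools was sequenced after Smart-seq2 amplification with ERCC spike-in RNAs. The authors deposited raw read counts per gene, one table of 160 pools, 46078 genes and 92 ERCC RNAs, neither normalized nor filtered. The submitters' processing notes list GSNAP, HTSeq 0.5.3p3 and the build mm10, whereas the study's methods name STAR and Ensembl 81, so which aligner made the counts is unclear. The strand and overlap settings are not given in the sources used here. Rows that name no gene (5) held 41.2% to 53.7% of the reads of the used pools and were left out.

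Pools were grouped by their column labels. The groups, members and gene lists were chosen with earlier results of these data known. edgeR 4.0.16 (R 4.3.3, TMM, robust quasi-likelihood) was run on genes that reached 10 counts in 5 or more pools, p-values were adjusted over all of them (Benjamini-Hochberg), and a call needed a log2 fold change beyond 0.1 and an adjusted p under 0.01. Standard errors came from the F statistics. The MC contrast and its difference from the SNS contrast came from one fit of the 4 E11.5 populations, whose levels were scaled together. Cell cycle lists were those of Seurat 5.3.0. Single values were compared by two-sided permutation tests (100000 resamples) in Python 3.11.15 with scipy 1.17.1. Gene positions and shared exon bases came from GENCODE M21.

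In the sympathoadrenal, catecholamine, granule and crest lists any tested member could be named, with values by pool for at most 6 of the smallest adjusted p. In the other lists these were the 3 largest rises and 3 largest falls called that reached 10 counts in 75% of pools in the group with the higher level, and over all genes the 8 largest of each. *Ccnd1*, *Ccne1*, *Ednra*, *Elavl4*, *Gfra1*, *Hes6*, *Jag2*, *Kitl*, *Map2*, *Notch1*, *Pcna*, *Scn3b*, *Mdk*, *Gal* by pool and the values by pool of *Sox10*, *Phox2a* and *Cartpt* were added after their values were seen, as were the names of the other members called in their lists. Some members of the lists are counted in them and are not reported here.

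Alternatives were DESeq2, ERCC or scran 1.30.0 size factors, other filters, other sets of pools, DESeq2 1.42.0's Wald test, the study's own test (scanpy 1.11.5, overestimated variance, after scran normalization), one fit of 4 populations and other thresholds. On simulated data for this comparison (15154 genes, 194 changed) edgeR recovered 60.2% of 2-fold and 80.2% of 4-fold changes, with 2 false calls. The simulated pools were drawn independently of each other, so these rates do not cover pools that share embryos. The labels do not tie pools to biological replicates, so p-values measure the spread between pools, which may share embryos. Amplified reads carry no molecular identifiers, so counting intervals understate the error.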

Additional observations from a re-analysis of the deposited data

Results flagged for a closer look

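The effect of GFP differed between SNS and MC pools for 819 genes with a higher and 976 with a lower effect in SNS pools, by the test of the difference itself (edgeR, adjusted p under 0.01). In all 4 groups, 42 named genes reached 10 counts in 75% of pools, and 27 of them differed in this way. Over all 17309 genes tested the shares were 4.73% higher and 5.64% lower. Many named genes were chosen for their change in SNS pools, which is part of this difference. The count among named genes therefore cannot be read against those shares.

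Cell cycle and neuronal genes had the higher effect in SNS pools. The differences of the log2 fold changes, SNS minus MC, were 1.91 for *Cdc45*, 1.80 for *Rrm2*, 2.30 for *Ccne1*, 1.70 for *Ccne2*, 1.52 for *Ccnd1*, 1.345 for *Pcna*, 0.83 for *Cdkn1c*, 0.47 for *Jpt1*, 1.17 for *Sox11*, 2.18 for *Map2*, 1.55 for *Hes6* and 0.57 for *Qdpr*, a recycling enzyme of the *Th* cofactor.

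Crest and migration genes had the lower effect in SNS pools, with differences of -2.68 for *Snai2*, -1.49 for *Zeb2*, -0.97 for *Ets1*, -2.14 for *Itga4*, -1.38 for *Erbb2*, -1.79 for *Ednra* and -1.38 for *Efnb1*. Notch genes gave -2.93 for *Jag1*, -2.20 for *Notch2*, -1.13 for *Notch1* and -1.78 for *Notch3*. Secreted factors gave -2.53 for *Ptn*, -2.95 for *Cxcl12* and -1.70 for *Igf2*, and the muscle filament gene *Des* gave -1.62. MC pools held far more mesenchymal RNA than SNS pools, and its part in these differences was not tested.

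Pools left out for going against their label held *Gata3* signal. The 3 pools labelled *Gata3*-GFP- MC with more *Ngfr* than *Pdgfrb* counts had a median of 364 CPM of *Gata3*, and 908 to 2072 *Gata3* counts each. The 3 pools labelled *Gata3*-GFP- SNS with more *Pdgfrb* than *Ngfr* counts had a median of 46.5 CPM of *Gata3*. In the left-out pools *Gata3* ran against the GFP label: the 3 labelled *Gata3*-GFP+ MC held 16.96 to 85.4 CPM, beside 126.3 to 407 CPM in those labelled *Gata3*-GFP- MC, and the 3 labelled *Gata3*-GFP+ SNS held 10.4 to 25.02 CPM, beside 45.98 to 51.8 CPM in those labelled *Gata3*-GFP- SNS. Used *Gata3*-GFP- MC pools held at most 19.7 CPM, and used *Gata3*-GFP+ MC pools 20.4 to 72.7 CPM.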

How the results depend on the processing

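With DESeq2 or scran size factors, other filters, other depth limits, DESeq2's Wald test, scanpy's test or one fit of 4 populations, the counts of genes called stayed within 1.5 times 773 higher and 858 lower. ERCC size factors gave 4097 higher and 363 lower (91.9% of calls higher, against 47.4%), and for the difference between SNS and MC contrasts 1386 and 488. Keeping the 6 pools against their label gave 325 and 300. An adjusted p under 0.05 gave 1303 and 1340, and a log2 fold change beyond 1 gave 325 and 474. The difference in genes with at least 10 counts (14.1) became -89.0 with the 6 pools kept and -909 with pools of low depth kept. The difference in the ratio of gene to ERCC counts was 0.292 (permutation p = 0.0380) with the 6 pools kept, 0.371 (p = 0.00180) under the stricter *Pdgfrb* limit and 0.432 (p = 0.00018) with pools of low depth kept. The study's own limits removed no further pool, so that setting repeats the comparison.

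Of 1588 pairs of a named gene and an alternative, 1446 kept direction and call, 2 reversed, 15 gained the call and the others lost it. The 2 that reversed were not called after it: *Mdk* gave 0.069 with ERCC size factors and *Foxd1* 0.81 with the 6 pools kept. DESeq2 and edgeR shared 768 higher and 847 lower genes. The study's scanpy test and edgeR shared 633 and 658, and by scanpy 16 named genes lost the call. No paired analysis was possible because the count columns repeat the population name with no pool number, so the replicate block could not be fitted. Low genes such as *Pnmt* and *Slc6a2* are limited by depth.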

Other observations

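The 3 left-out pools labelled *Gata3*-GFP- MC with more *Ngfr* than *Pdgfrb* counts held 70.5 to 513 CPM of *Th* and 3716 to 5784 CPM of *Cdkn1c*. The 3 left-out pools labelled *Gata3*-GFP+ MC held 0.223 to 22.7 CPM of *Th*, 356 to 529 CPM of *Sox10* and 29.7 to 48.7 CPM of *Wt1*. On the same scale the used *Gata3*-GFP+ SNS pools held 9.19 to 361 CPM of *Th* and 3258 to 5898 CPM of *Cdkn1c*, and the used *Gata3*-GFP- SNS pools held 1542 to 2633 CPM of *Cdkn1c*. These pools entered no comparison.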
